A study of Mus musculus with 18 samples.

Results

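The genes described here are 34 genes of B cell identity and B cell receptor signalling, chosen by symbol from the 19326 lines of a spleen expression table. All 34 were in the table, and all 34 reached an RPKM of 1 in at least 3 libraries, as did 12905 genes in all. RPKM is the read number of a gene divided by its length and by the mapped reads of the library, so levels can be set side by side between genes. Spleens of ICR mice aged 10 weeks were sequenced in 18 libraries, 3 for each of 6 groups. Con mice ate a regular diet, received saline and served as controls. A10 mice were given AOS (alginate oligosaccharide, a sugar polymer fragment obtained from seaweed), with 10 mg per kg as the dose. STZ mice received streptozotocin, a toxin of pancreatic beta cells used to model type 1 diabetes. STZ-A10 mice received STZ together with AOS, again with 10 mg per kg. A10-FMT and Con-FMT mice received STZ and then, by mouth, pooled small-intestinal content of donor mice given AOS or of control donors, which is called fecal microbiota transplantation (FMT). The study's methods describe male mice for Con, STZ, Con-FMT and A10-FMT. The dosing schedule of A10 and STZ-A10 was not given in the sources used here. The labels do not say that the 3 libraries of a group came from separate animals, so the p-values measure the spread between these samples.

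The B cell receptor is an antibody held in the membrane beside the signalling pair Cd79a and Cd79b. When it binds antigen, kinases phosphorylate that pair, and adaptors such as Blnk pass the signal on through Btk, while co-receptors such as Cr2 strengthen it and surface inhibitors such as Cd22 weaken it. Ebf1 and Pax5 set and hold the B cell fate, and the receptor for the survival factor BAFF keeps mature cells alive. The spleen is a main site of mature B cells, which lie in the follicles and the marginal zone of the white pulp, next to a red pulp that is rich in erythroid cells.

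The 34 genes were well expressed in spleen, and the defining markers among them were expressed in each group. Over the 18 libraries Cd24a had the highest mean, 1441 RPKM, ahead of Cd79a with 697 RPKM, Cd79b with 401 RPKM and Cd37 with 378 RPKM. Bach2 had the lowest mean, 7.66 RPKM, below Bcl6 with 14.4 RPKM and Ebf1 with 22 RPKM. The other 27 genes lay between 28.5 RPKM for Cd1d1 and 280 RPKM for Ly6d. The genes the results turn on most lie apart in the genome (GRCm38, GENCODE M21), with Cd79a at chr7:24897381-24902197, Ms4a1 at chr19:11249675-11266241, Bach2 at chr4:32238804-32586108 and Bcl6 at chr16:23965052-23988852. Of 5 immature B cell genes (Rag1, Rag2, Vpreb1, Igll1 and Dntt), Rag1 and Rag2 stayed under 1 RPKM in each library. The 5 summed to between 0.10 and 3.52 RPKM. Dntt, the 1 of them tested, stood at 1.76, 1.58 and 0.71 RPKM in Con and at 0.14, 0.1 and 0.27 RPKM in STZ. It reached 1 RPKM only in Con and A10 libraries, so it passed the filter through the groups where it was high. For that reason its test of STZ against Con is not read here. In bulk tissue, fewer B cells and less RNA per B cell cannot be told apart.

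Most of the 34 genes moved together from library to library. A10-FMT replicate 3 held the lowest value of 32 of the 34 genes. The median gene there deviated by -1.515 (log2) from its own mean over the 18 libraries, beside -0.314 for the median of all genes tested. The share of all genes at their lowest in that library was not counted. Without Cd24a, the other 33 genes summed to 1168 RPKM in A10-FMT replicate 3 and to between 2852 and 4919 RPKM in the other 17 libraries. STZ replicate 1 lay at the other end with a median deviation of 0.423, beside 0.122 over all genes tested. STZ replicates 2 and 3 had median deviations of -0.330 and -0.308, beside -0.036 and -0.070 over all genes tested. The median coefficient of variation of the 34 genes was lowest in Con-FMT (5.97%) and A10 (7.82%), followed by STZ-A10 (20.2%), Con (25.8%) and STZ (33%), and highest in A10-FMT (51%).

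**Figure D1:**
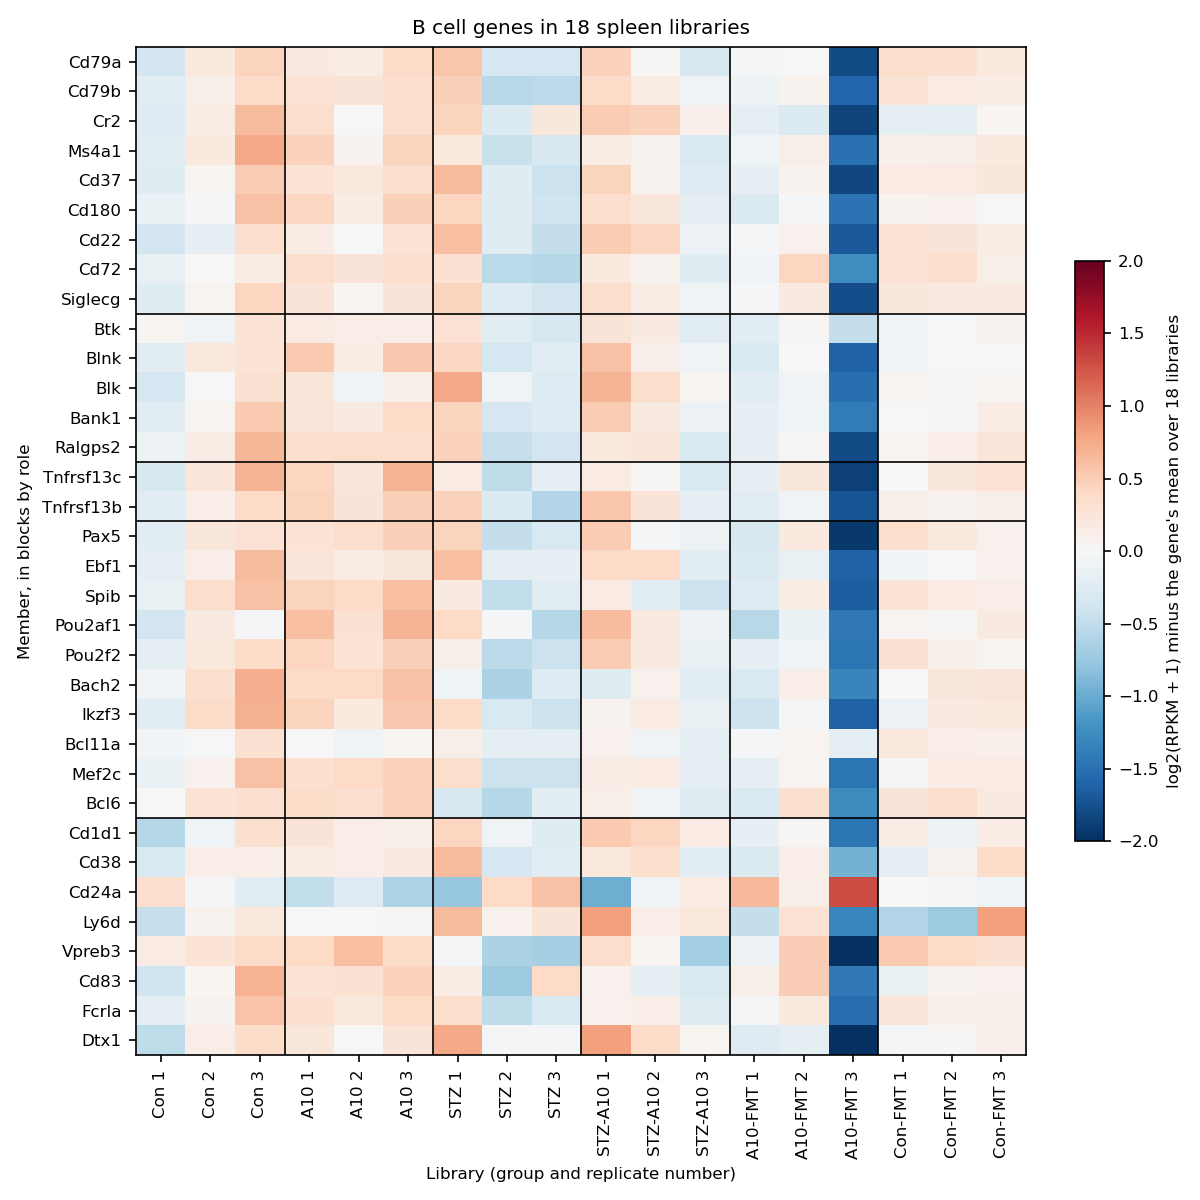
Level of each of the 34 B cell genes in each of the 18 libraries, as log2(RPKM + 1) minus the mean of that gene over the 18 libraries, with the genes in 5 blocks by role and the libraries in 6 groups of 3. A10-FMT replicate 3 is the column in which 32 genes are at their lowest, with Cd24a at its highest, 3327.1 RPKM.

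Markers of other cell types also shifted in A10-FMT libraries, in both directions. The median deviation of 19 T cell genes was -1.636 in A10-FMT replicate 3. In STZ replicate 1 it was 0.063, where the B cell genes had 0.423. Cd3e, a subunit of the T cell receptor complex, was at 4.96 RPKM in A10-FMT replicate 3 against 15.75 to 41.86 RPKM in the other libraries. The 12 erythroid genes in the table summed to between 2670 and 6209 RPKM in the A10-FMT libraries and to between 1310 and 3762 RPKM in the libraries of the other groups. Alb, the main protein of liver and plasma, stood at 174.72 RPKM in A10-FMT replicate 3 and at 0.1 to 104.59 RPKM in the other libraries, and the 10 liver genes summed to between 211 and 449 RPKM in A10-FMT and to between 93.7 and 390 RPKM elsewhere. The globin share of the summed RPKM was 10.4% to 42.7%, with the lowest share in STZ replicate 1 and the highest in A10-FMT replicate 3. The 10 exocrine pancreas genes summed to between 153 and 18702 RPKM in A10-FMT and to between 22.99 and 7350 RPKM elsewhere. Ctrb1, 1 of them, was at 5389.96 RPKM in A10-FMT replicate 2, and at 38.12 and 266.44 RPKM in A10-FMT replicates 1 and 3. The part of these other cell types in the results on B cell genes was not tested.

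The defining B cell genes were lower where the globin share was higher, and Cd24a was higher. Over the 18 libraries the log2 level of Ms4a1 (Cd20, a surface protein of mature B cells) had a Pearson r of -0.703 with the globin share (permutation p = 0.00068, 0.00069 adjusted over 7 relations) and a Spearman rho of -0.856 (permutation p = 4e-05, 5.6e-05 adjusted). For Cd79a, Cd79b, Cd22, Pax5 and Cr2 the Pearson r lay between -0.749 and -0.685, with adjusted permutation p between 0.000163 and 0.00069. Their Spearman rho lay between -0.882 and -0.68, with adjusted permutation p between 1.75e-05 and 0.00268. Without STZ replicate 1 and STZ-A10 replicate 1, the libraries farthest from the median globin share, r was -0.825 for Ms4a1 and between -0.755 and -0.671 for the other 5, and within groups the 6 values lay between -0.706 and -0.572. Cd24a, which is known from both immature B cells and red cell precursors, had a Pearson r of 0.927, and its Spearman rho was 0.95 (permutation p = 1e-05 in both cases, the lowest value open to 100000 permutations, 7e-05 and 1.75e-05 adjusted). Its r was 0.903 without the same pair of libraries and 0.939 within groups. With A10-FMT replicate 3 left out, r lay between -0.797 and -0.659 for the 6 defining genes and was 0.928 for Cd24a. Both quantities are scaled to the reads of the same library. By reads, estimated from gene lengths, the globin share was smaller, from 2.65% in STZ replicate 1 to 13.3% in A10-FMT replicate 1. Taking those reads out of the total would multiply the level of each gene in a library by 1.03 to 1.15.

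**Figure D2:**
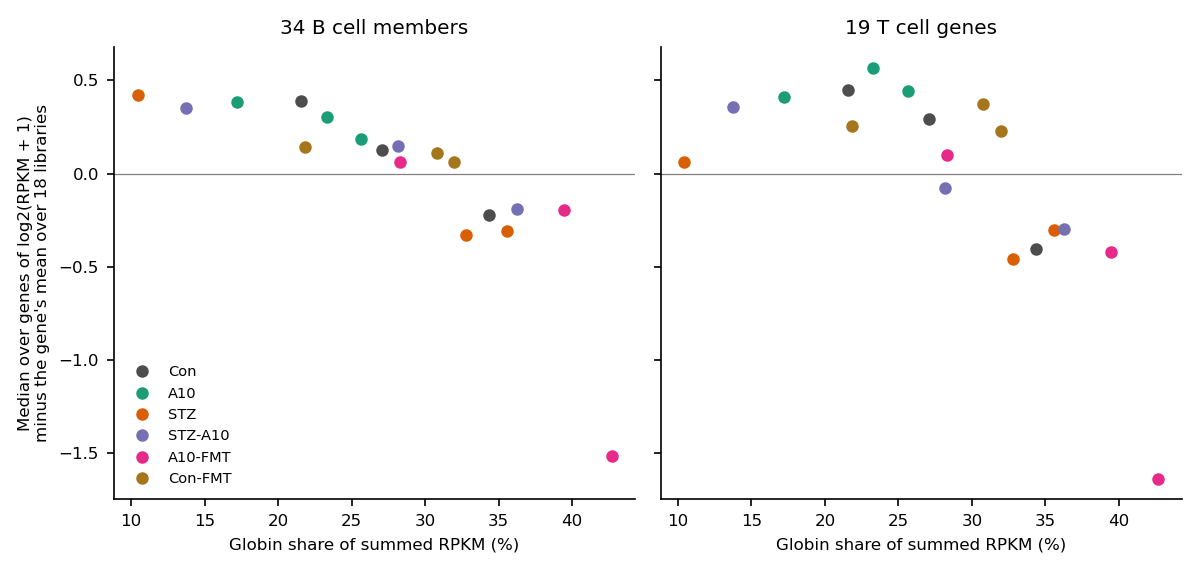
Median deviation of the 34 B cell genes (left) and of 19 T cell genes (right) in each library, in log2(RPKM + 1) minus the mean of each gene over 18 libraries, against the globin share of the summed RPKM in percent, with 1 point a library and colours for groups. Both medians are lowest in A10-FMT replicate 3, at -1.515 and -1.636, where the globin share is highest, 42.7%.

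Among the genes of the receptor complex, its co-receptors and its surface inhibitors, Ms4a1 stood at 180.15, 240.86 and 355.38 RPKM in Con, at 290.42, 221.19 and 286.74 RPKM in A10 and at 243.1, 153.82 and 167.87 RPKM in STZ. It stood at 232.51, 222.4 and 171.52 RPKM in STZ-A10, at 197.86, 228.57 and 74.37 RPKM in A10-FMT and at 226.76, 229.28 and 241.55 RPKM in Con-FMT. The narrow Con-FMT values lay above STZ replicates 2 and 3 but below STZ replicate 1, and in each pair compared below the groups overlapped.

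Cd79a, a signalling chain of the receptor, stood at 507.55, 755.88 and 896.8 RPKM in Con, at 745.8, 730.22 and 861 RPKM in A10 and at 971, 525.65 and 515.79 RPKM in STZ. In STZ-A10 it stood at 910.31, 671.81 and 527.41 RPKM, in A10-FMT at 641.99, 667.05 and 189.92 RPKM and in Con-FMT at 839.67, 822.42 and 760.87 RPKM. STZ held the highest library and A10-FMT the lowest, each apart from the rest of its group, and only A10-FMT and Con-FMT, among the pairs compared below, did not overlap.

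Cd79b, the partner of Cd79a, stood at 329.75, 415.25 and 498.06 RPKM in Con, at 470.34, 456.68 and 484.66 RPKM in A10 and at 534.34, 259.47 and 265.73 RPKM in STZ. Its values were 499.71, 423.67 and 366.31 RPKM in STZ-A10, 357.12, 402.7 and 126.7 RPKM in A10-FMT and 463.77, 429.43 and 425.96 RPKM in Con-FMT. In both chains STZ replicate 1 was the highest STZ library and A10-FMT replicate 3 the lowest A10-FMT library.

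Cd22, a sialic acid-binding inhibitor of the receptor, stood at 107.95, 126.68 and 181.71 RPKM in Con, at 157.6, 142.9 and 172.29 RPKM in A10 and at 214.82, 119.78 and 101.07 RPKM in STZ. It was at 200.86, 188.53 and 130.57 RPKM in STZ-A10, at 138.41, 151.17 and 43.32 RPKM in A10-FMT and at 173.13, 169.59 and 157.12 RPKM in Con-FMT. STZ held both the highest library and values at the low end of Con.

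Cr2, the complement receptor that strengthens receptor signalling and is most abundant on marginal zone B cells, stood at 79.44, 105.53 and 148.32 RPKM in Con, at 121.91, 95.16 and 119.83 RPKM in A10 and at 129.94, 78.69 and 111.01 RPKM in STZ. It was at 135.61, 131.14 and 101.97 RPKM in STZ-A10, at 82.84, 77.53 and 25.6 RPKM in A10-FMT and at 82.41, 82.49 and 97.13 RPKM in Con-FMT. Unlike the chain pair, Cr2 had its lowest means in the transplant groups, 62 RPKM in A10-FMT and 87.3 RPKM in Con-FMT, against 107 to 123 RPKM elsewhere. Of the 3 A10-FMT libraries, 2 lay near those of Con-FMT. Con-FMT overlapped Con and STZ, as Con replicate 1 and STZ replicate 2 lay below each Con-FMT library.

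The other 4 genes of this role were Cd37, Siglecg, Cd72 and Cd180. Cd37, a tetraspanin, ran from 100.29 to 558.81 RPKM, the inhibitor Siglecg from 30.71 to 146.8 RPKM, the inhibitor Cd72 from 22.06 to 72.58 RPKM and Cd180, a Toll-like receptor relative, from 16.13 to 70.81 RPKM.

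**Figure D3:**
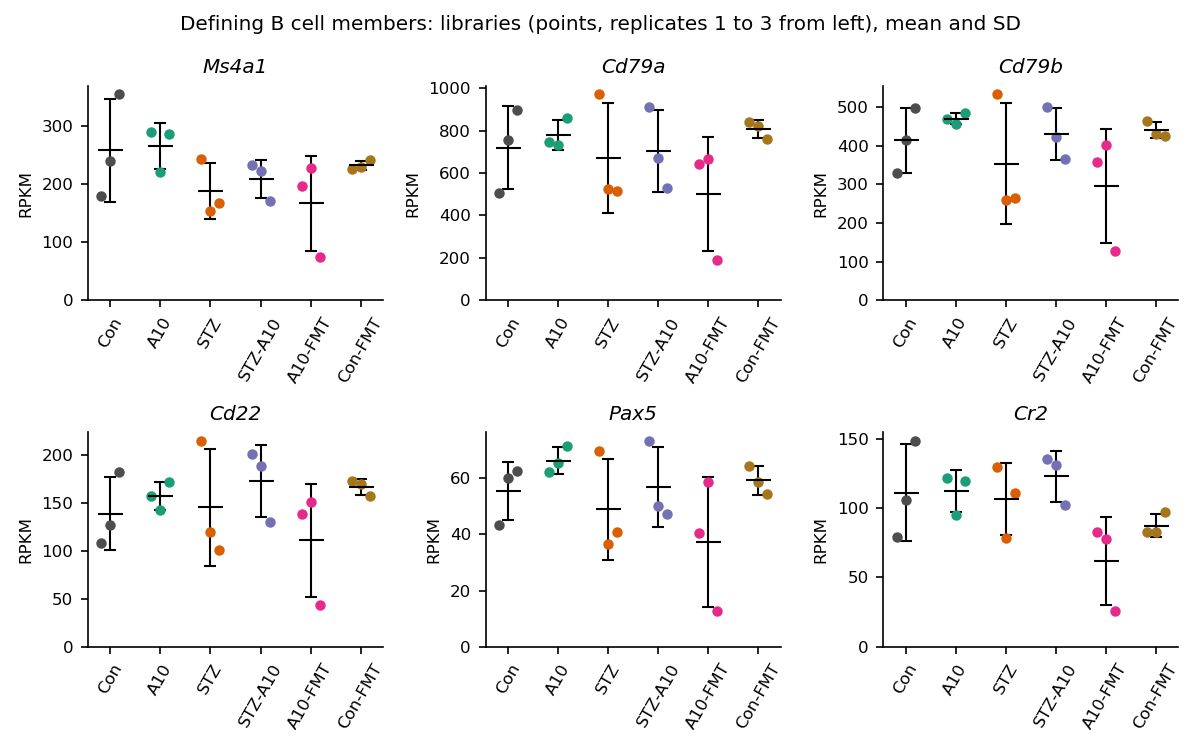
RPKM of 6 defining B cell genes in each library, with 1 point a library (replicates 1 to 3 from left to right in each group) and the mean and SD of the 3 libraries as bars. In each panel A10-FMT replicate 3 is the lowest point, for example 74.37 RPKM for Ms4a1, and the Con-FMT points lie close together.

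Of the genes that relay the signal inside the cell, the kinase Blk ran from 27.09 to 134.72 RPKM, the adaptor Blnk from 22.47 to 107.5 RPKM, the scaffold Bank1 from 31.13 to 121.34 RPKM and the exchange factor Ralgps2 from 8.95 to 53.37 RPKM. Btk, the kinase whose loss stops B cell development in humans, had a range of only 32 to 54.6 RPKM. The ratio of its highest to its lowest library was 1.71, and that of Bcl11a 1.43, whereas the other 32 genes had ratios of 3.09 for Cd38 to 7.78 for Vpreb3. Btk and Bcl11a are also used by cells outside the B lineage, and whether this bears on their narrow ranges was not tested. The receptors for BAFF and APRIL were Tnfrsf13c, the survival receptor for BAFF, with 22.25 to 134.52 RPKM, and Tnfrsf13b (TACI), with 15.36 to 78.02 RPKM. Both were lowest in A10-FMT replicate 3, and the highest library was A10 replicate 3 for Tnfrsf13c and STZ-A10 replicate 1 for Tnfrsf13b.

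Among the transcription factors and cofactors, Pax5 stood at 43.51, 60.2 and 62.73 RPKM in Con, at 62.16, 65.33 and 71.42 RPKM in A10 and at 69.61, 36.48 and 40.98 RPKM in STZ. It was at 73.28, 50.14 and 47.44 RPKM in STZ-A10, at 40.62, 58.66 and 12.69 RPKM in A10-FMT and at 64.55, 58.67 and 54.51 RPKM in Con-FMT. The A10 libraries lay close together, whereas STZ reached from 36.48 to 69.61 RPKM. The octamer-binding factor Pou2f2 and its cofactor Pou2af1 ran from 11.55 to 48.32 and from 45.76 to 200.47 RPKM. Ebf1 ran from 6.16 to 33.11 RPKM, the ETS factor Spib from 31.36 to 151.76 RPKM, the zinc finger factor Ikzf3 from 15.86 to 83.44 RPKM and Mef2c from 10.32 to 45.71 RPKM. Bach2, a repressor that holds back plasma cell differentiation, ran from 2.31 to 12.7 RPKM, and Bcl6, the repressor that germinal centre B cells need, from 5.11 to 19.45 RPKM. Bcl11a ranged only from 42.31 to 60.34 RPKM, with its lowest library in STZ and not in A10-FMT.

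Because these factors bind known DNA motifs, the promoters of the 34 genes were searched for 3 of them on both strands: the octamer ATGCAAAT of the Pou2f2 family, TCCC and GGGA parted by any 2 bases for Ebf1 and GAGGAAGT of the Spib family. RefSeq promoter windows of 250 bases before to 50 bases after a transcript start (GRCm38.p6) were at hand for 26 of the 34 genes. The octamer lay in 2 of the 26 genes, Blnk and Vpreb3 (7.69%, against 1.97% of 27025 genes with a window). The Ebf1 motif lay in 1, Cd22 (3.85% against 1.06%). The Spib family motif lay in 2, Cd37 and Cd72 (7.69% against 3.69%). A match is a description of letters and not a bound site. The windows of 3 genes, 1 for each motif, are shown with the motif in capitals. The motif begins 45 bases before the transcript start in Vpreb3, 49 in Cd22 and 25 in Cd37, and the motifs of Vpreb3 and Cd37 read on the opposite strand.
Vpreb3, chr10:75948050-75948349, plus strand: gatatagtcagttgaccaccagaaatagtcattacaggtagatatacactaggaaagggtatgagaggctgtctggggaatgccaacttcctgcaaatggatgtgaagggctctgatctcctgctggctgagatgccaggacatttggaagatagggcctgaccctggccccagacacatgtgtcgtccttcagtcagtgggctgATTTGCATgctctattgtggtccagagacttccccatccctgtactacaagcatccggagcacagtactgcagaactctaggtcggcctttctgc
Cd22, chr7:30878979-30879278, minus strand: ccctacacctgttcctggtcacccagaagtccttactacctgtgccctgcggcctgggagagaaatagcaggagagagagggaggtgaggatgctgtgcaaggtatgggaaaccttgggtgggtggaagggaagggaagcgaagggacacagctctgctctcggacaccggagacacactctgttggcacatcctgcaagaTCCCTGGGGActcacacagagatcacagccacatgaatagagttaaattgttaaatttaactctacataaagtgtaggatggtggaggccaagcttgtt
Cd37, chr7:45238790-45239089, minus strand: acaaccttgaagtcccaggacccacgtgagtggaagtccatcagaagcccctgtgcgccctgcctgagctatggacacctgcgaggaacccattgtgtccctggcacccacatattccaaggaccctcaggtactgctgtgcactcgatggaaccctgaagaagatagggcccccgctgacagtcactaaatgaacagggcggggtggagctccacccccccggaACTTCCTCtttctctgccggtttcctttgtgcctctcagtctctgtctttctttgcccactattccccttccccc

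The 8 maturation and subset markers included Vpreb3 and Dtx1, which had the highest ratios of highest to lowest library among the 34, 7.78 and 7.55. Ly6d, a surface protein of early and mature B cells, ran from 106.32 to 464.32 RPKM and Vpreb3, a chaperone of the receptor's light chains, from 8.66 to 67.38 RPKM. Cd83, an activation marker, ran from 15.08 to 69.54 RPKM, Cd38, a surface enzyme of naive B cells, from 18.46 to 56.98 RPKM, Cd1d1, a lipid-presenting protein that is high on marginal zone B cells, from 9.4 to 39.63 RPKM, and Fcrla from 22.65 to 99.23 RPKM. Dtx1, a target gene of Notch signalling, ran from 15.17 to 114.58 RPKM. Cd24a, in contrast, had its lowest value, 678.87 RPKM, in STZ-A10 replicate 1 and its highest, 3327.1 RPKM, in A10-FMT replicate 3, the opposite order to most of the 34 genes.

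Since most genes moved with the library, each was also expressed relative to the mean log2 level of 13 mostly B restricted members of the set, a choice made after seeing the data. The 13 were Ms4a1, Cd79a, Cd79b, Cd22, Pax5, Ebf1, Blk, Bank1, Fcrla, Cr2, Tnfrsf13c, Pou2af1 and Vpreb3. The SDs and relative levels leave a gene out of its own reference, whereas the relative fold changes given below keep it in. The median SD over the 18 libraries was 0.497 (log2) for the 34 genes as deposited and 0.173 relative to the 13, leaving a gene out of its own reference, and 31 of 34 SDs became smaller. Across all genes tested the median SD as deposited was 0.232. Siglecg (0.087), Cd37 (0.090) and Tnfrsf13b (0.097) followed the 13 most closely. Cd24a (1.008), Ly6d (0.438), Bcl11a (0.413), Vpreb3 (0.351), Btk (0.329) and Cd83 (0.296) followed them least.

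The comparison of STZ with Con asks what diabetes induced by STZ does to these genes. Of the 34 genes, 26 had a fold change below 0 (52.4% of all genes tested did) and 8 above 0 (47.6%), with a median log2 fold change of -0.172 against -0.011 over all genes tested. None of the 34 passed an adjusted p of 0.05 in limma (0 genes), while 0.163% of all genes tested did, 21 in number. At an unadjusted p under 0.05, 2 of the 34 were lower (5.88%, beside 6.44% of all genes) and 0 higher (beside 4.63%). With array weights, which give variable libraries less weight, 14 of the 34 passed the adjusted threshold, among 3132 genes in all. In the same comparison 18 of 19 T cell genes had a lower mean, with a median of -0.338 and 0 at an unadjusted p under 0.05. All 6 NK cell genes were lower (median -0.542, 3 at that p) and all 12 red pulp macrophage genes higher (median 0.425, 8 at that p). Markers of several other cell types and tissues had larger differences. The median was -2.210 for 11 neutrophil genes (10 at an unadjusted p under 0.05), -1.415 for 10 platelet genes (10 at that p), -2.506 for 10 liver genes (8), -2.726 for 4 testis germ cell genes (4) and 3.042 for 10 exocrine pancreas genes (3). Of these, limma called the platelet gene Gp6 and the testis gene Tnp1. Of 12 erythroid genes, 6 higher and 6 lower with a median of -0.038, it called Car1, higher in STZ with a log2 fold change of 1.42. The neutrophil genes summed to between 800 and 15256 RPKM in Con and to between 427 and 1729 RPKM in STZ. The part of these markers in the results on B cell genes was not tested.

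The 3 genes with the lowest p in STZ against Con were Bach2, Bcl6 and Vpreb3. Bach2 stood at 6.95, 9.35 and 12.7 RPKM in Con and at 6.79, 4.35 and 5.93 RPKM in STZ, equal to a log2 fold change of -0.655 with an SE of 0.281 (adjusted p = 0.389). Bcl6 stood at 13.87, 16.86 and 17.6 RPKM in Con and at 10.8, 8.99 and 11.72 RPKM in STZ, equal to a log2 fold change of -0.573 with an SE of 0.266 (adjusted p = 0.44). Vpreb3 stood at 49.53, 53.24 and 57.6 RPKM in Con and at 42.68, 27.91 and 27.33 RPKM in STZ, equal to a log2 fold change of -0.722 with an SE of 0.468 (adjusted p = 0.647). The means were 9.67 ± 2.89 RPKM in Con and 5.69 ± 1.24 RPKM in STZ for Bach2 (SD, n = 3), 16.1 ± 1.97 and 10.5 ± 1.39 RPKM for Bcl6, and 53.5 ± 4.04 and 32.6 ± 8.7 RPKM for Vpreb3. All 3 STZ libraries lay below all 3 Con libraries for these 3 genes, 8.82% of the 34, beside 7.07% of all genes tested, and 0 of the 34 lay higher without overlap, beside 5.77%. In these 3 genes STZ replicate 1, which was high for most of the 34, was not above Con. Without A10-FMT replicate 3, which enters this comparison only through the shared estimate of the spread, the adjusted p was 0.098 for Bach2, 0.0642 for Bcl6 and 0.134 for Vpreb3.

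None of the 6 defining genes passed the test. On the log2 scale STZ against Con was at -0.430 for Ms4a1 (SE of 0.334, adjusted p = 0.724), -0.128 for Cd79a (SE of 0.389, adjusted p = 0.955) and -0.295 for Cd79b (SE of 0.346, adjusted p = 0.839). It was 0.022 for Cd22 (SE of 0.377, adjusted p = 0.995), -0.215 for Pax5 (SE of 0.387, adjusted p = 0.908) and -0.044 for Cr2 (SE of 0.343, adjusted p = 0.985). By role, 8 of 9 receptor complex genes, 4 of 5 relay genes, both BAFF and APRIL receptors and 9 of 10 transcription factors had a lower mean in STZ, against 3 of 8 maturation and subset markers. With STZ replicate 1 left out, the median of the 34 genes was -0.434, with -0.628 for Ms4a1, -0.428 for Cd79a, -0.636 for Cd79b, -0.298 for Cd22, -0.492 for Pax5 and -0.201 for Cr2.

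Relative to the 13 B restricted genes, the pattern of STZ against Con split by gene. Bach2 stood at -0.456 (SE 0.23), Bcl6 at -0.374 (SE 0.238) and Vpreb3 at -0.523 (SE 0.261) on the log2 scale, whereas Ly6d stood at 0.582 (SE 0.332) and Dtx1 at 0.429 (SE 0.204), each with an adjusted p of 0.972. Vpreb3 is 1 of the 13. With Vpreb3 left out of its own reference, its mean relative log2 level was 5.67 in Con and 5.10 in STZ. The relative log2 level of Dtx1, a value singled out after it was seen, lay between 6.30 and 6.38 in STZ and between 6.21 and 6.45 in STZ-A10. It lay between 5.76 and 6.03 in Con, 5.83 and 5.93 in A10, 5.70 and 5.94 in A10-FMT and 5.83 and 5.98 in Con-FMT. The 6 libraries of STZ and STZ-A10 thus lay above the other 12, although the transplant groups had also received STZ. This split was seen in the values and not planned, and the share of all genes that show it was not counted.

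**Figure D4:**
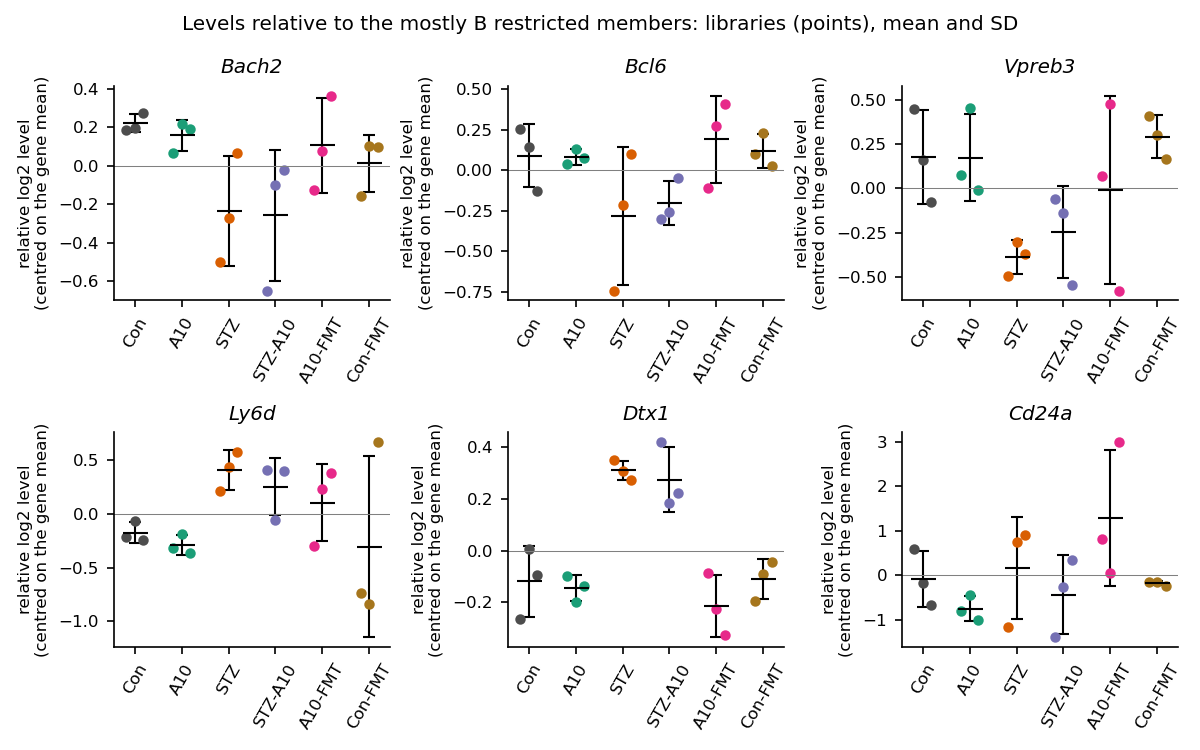
Log2 level of 6 genes relative to the mean of 13 mostly B restricted genes, centred on the mean of each gene over 18 libraries, with 1 point a library and the mean and SD of the 3 libraries as bars. Vpreb3, 1 of the 13, was left out of its own reference. Dtx1 is higher in the 6 libraries of STZ and STZ-A10 than in the other 12, a split not counted over all genes. Vpreb3 is lower in STZ than in Con and Con-FMT, and Cd24a is highest in A10-FMT replicate 3.

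A10 against Con tests AOS in mice without STZ. Of the 34 genes, 32 had a fold change above 0 (62.5% of all genes tested did) and Cd24a and Bcl11a one below 0 (37.5%), with a median log2 fold change of 0.164 beside 0.046 over all genes tested. The limma test called 0 of the 34 (0.00775% of all genes, 1 in number), and 0 were at an unadjusted p under 0.05, beside 3.56% of all genes higher and 1.68% lower. Without Con replicate 1 the median of the 34 was -0.008, and without Con replicate 3 it was 0.345.

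Pou2af1, the cofactor of octamer-binding factors, had the lowest p in A10 against Con. It stood at 94.93, 140.88 and 122.7 RPKM in Con and at 188.97, 154.13 and 200.47 RPKM in A10, equal to a log2 fold change of 0.606 with an SE of 0.292 (adjusted p = 0.966). Cd24a stood at 1697.59, 1306.93 and 1163.38 RPKM in Con and at 959.11, 1116.54 and 877.26 RPKM in A10 (log2 fold change -0.486, SE 0.353, adjusted p = 0.989). Cd72 stood at 48.62, 53.23 and 59.35 RPKM in Con and at 68.75, 64.23 and 67.13 RPKM in A10 (log2 fold change 0.311, SE 0.312, adjusted p = 0.989). The groups did not overlap in these 3 genes, higher for 2 of the 34 (5.88%, beside 11.7% of all genes) and lower for 1 (2.94%, beside 4.81%). The defining genes had log2 fold changes of 0.053 for Cr2 to 0.268 for Pax5.

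STZ-A10 against STZ tests AOS in mice with STZ. Again 32 of the 34 genes had a fold change above 0 (58.7% of all genes tested did), with a median of 0.194 beside 0.034 over all genes tested, and Cd24a and Cd83 one below 0 (41.3%). Limma called 0 of the 34 (0.00775% of all genes), and 0 were at an unadjusted p under 0.05, beside 1.28% of all genes higher and 1.65% lower. None of the 34 had groups without overlap, beside 3.29% higher and 4.71% lower. Without STZ replicate 1 the median was 0.432.

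Pou2f2 had the lowest p, with 36.44, 23.06 and 24.58 RPKM in STZ and 48.32, 38.39 and 30.55 RPKM in STZ-A10 (log2 fold change 0.470, SE 0.292, adjusted p = 0.996). Bcl6, at 10.8, 8.99 and 11.72 RPKM in STZ, stood at 14.96, 13.07 and 11.57 RPKM in STZ-A10 (log2 fold change 0.304, SE 0.266, adjusted p = 0.996). Cd1d1 stood at 37.14, 25.94 and 23.13 RPKM in STZ and at 39.63, 37.1 and 30.87 RPKM in STZ-A10 (log2 fold change 0.331, SE 0.305, adjusted p = 0.996). In each of these the lowest STZ-A10 library overlapped STZ. With STZ replicate 1 left out, the values were 0.668 for Pou2f2, 0.326 for Bcl6 and 0.525 for Cd1d1.

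Whether the effect of AOS differed with STZ was tested by the interaction term. The limma test called 0 of the 34 genes and 0% of all genes, and 0 of the 34 were at an unadjusted p under 0.05, beside 1.21% of all genes above 0 and 1.65% below. The median interaction of the 34 was 0.055 beside -0.018 over all genes tested, with 20 above 0 (46.2% of all genes tested) and 14 below (53.8%). The 3 lowest p belonged to Bcl11a (0.130, SE 0.167), Pou2af1 (-0.304, SE 0.413) and Cd83 (-0.302, SE 0.559), each with an adjusted p of 1. Cd83 stood at 31.86, 43.84 and 69.54 RPKM in Con, at 51.6, 52.46 and 58.69 RPKM in A10, at 47.15, 25.5 and 56.28 RPKM in STZ and at 45.26, 37.6 and 34.24 RPKM in STZ-A10. Con and STZ overlapped with each of the other groups, and A10 lay above STZ-A10.

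A10-FMT against STZ asks whether microbiota from AOS donors moved these genes in mice with STZ. Of the 34 genes, 32 had a fold change below 0 (72.3% of all genes tested did), with a median of -0.493 beside -0.149 over all genes tested, and Cd24a and Bcl11a one above 0 (27.7%). Limma called 0 of the 34 (0.00775% of all genes). At an unadjusted p under 0.05, 5 were lower (14.7%, beside 15.2% of all genes), namely Cr2, Blk, Ebf1, Pou2af1 and Dtx1, and 0 were higher (beside 1.95%). Without A10-FMT replicate 3, the median of the 34 was 0.051, and without both that library and STZ replicate 1 it was 0.297. With array weights 1 of the 34 passed the adjusted threshold, among 1605 genes in all, and the median was 0.153.

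Dtx1 stood at 109.76, 62.12 and 62.11 RPKM in STZ and at 53.26, 56.72 and 15.17 RPKM in A10-FMT, equal to a log2 fold change of -1.041 with an SE of 0.387 (adjusted p = 0.248). It was the only 1 of the 34 whose libraries did not overlap (2.94%, beside 12.1% of all genes lower and 2.33% higher), and its value was -0.444 without A10-FMT replicate 3. Cr2 had a log2 fold change of -0.913 with an SE of 0.343 (adjusted p = 0.248), or -0.376 without that library. Ebf1 stood at 32.42, 18.35 and 18.68 RPKM in STZ and at 16.97, 18.76 and 6.16 RPKM in A10-FMT, equal to a log2 fold change of -0.775 with an SE of 0.323 (adjusted p = 0.269), or -0.309 without it. Without STZ replicate 1 the values were -0.771 for Dtx1, -0.756 for Cr2 and -0.516 for Ebf1. The other defining genes had values of -0.297 for Ms4a1 (SE 0.334), -0.563 for Cd79a (SE 0.389), -0.337 for Cd79b (SE 0.346), -0.500 for Cd22 (SE 0.377) and -0.570 for Pax5 (SE 0.387). Their adjusted p lay between 0.406 and 0.598. With A10-FMT replicate 3 left out, these 5 became 0.204, 0.030, 0.188, 0.072 and 0.052, and their direction turned.

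Con-FMT against STZ is the same question for microbiota from control donors, and it shares the STZ libraries with the comparison before. Of the 34 genes, 28 had a fold change above 0 (50.4% of all genes tested did) and 6 below 0 (49.6%), with a median of 0.238 beside 0.002 over all genes tested. The limma test called 0 of the 34 (0.00775% of all genes), and 1, Bcl6, was at an unadjusted p under 0.05 (2.94%, beside 2.66% of all genes higher), with 0 lower (beside 2.58%). With STZ replicate 1 left out, the median was 0.510, and with array weights 15 of the 34 passed the adjusted threshold, among 2125 genes in all.

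Bcl6 stood at 16.64, 17.86 and 15.73 RPKM in Con-FMT, above the 8.99 to 11.72 RPKM of STZ, equal to a log2 fold change of 0.631 with an SE of 0.266 (adjusted p = 0.919). Bcl11a stood at 53.1, 42.31 and 42.33 RPKM in STZ and at 56.58, 53.4 and 52.41 RPKM in Con-FMT (log2 fold change 0.240, SE 0.118, adjusted p = 0.948). Vpreb3 stood at 63.77, 58.11 and 54.43 RPKM in Con-FMT, above the 27.33 to 42.68 RPKM of STZ (log2 fold change 0.856, SE 0.468, adjusted p = 0.959). Bach2, at 7.22, 8.64 and 8.8 RPKM in Con-FMT, also lay above each STZ library (log2 fold change 0.476, SE 0.281, adjusted p = 0.964). Bach2, Bcl6 and Vpreb3 were the 3 of the 34 without overlap (8.82%, beside 6.94% of all genes higher), all 3 higher, with 0 lower (beside 6.22%). Without STZ replicate 1 the values were 0.653 for Bcl6, 0.347 for Bcl11a and 1.060 for Vpreb3. Relative to the 13 B restricted genes, Vpreb3 stood at 0.629 (SE of 0.261, adjusted p = 0.913) and Ly6d at -0.712 (SE of 0.332, adjusted p = 0.913).

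A10-FMT against Con-FMT compares the donors directly. Of the 34 genes, 33 had a fold change below 0 (71% of all genes tested did) and Cd24a one above 0 (29%), with a median of -0.664 beside -0.166 over all genes tested. Limma called 0 of the 34 and 0% of all genes. At an unadjusted p under 0.05, 15 were lower (44.1%, beside 20.1% of all genes) and 0 higher (beside 3.49%). Without overlap, 15 were lower (44.1%, beside 23.9%) and 1, Cd24a, higher (2.94%, beside 5.35%). Without A10-FMT replicate 3, the median was -0.186 and 0 of the 34 were at an unadjusted p under 0.05. Without A10-FMT replicate 2, 18 of the 34 passed the adjusted threshold, among 2625 genes in all, and with array weights, which give variable libraries less weight, 17 did, among 5399.

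Pou2af1 had the lowest p, with 84.87, 113.33 and 45.76 RPKM in A10-FMT and 130.07, 127.25 and 141.39 RPKM in Con-FMT (log2 fold change -0.794, SE 0.292, adjusted p = 0.204). It was -0.433 without A10-FMT replicate 3. Bcl6 stood at 11.14, 17.57 and 5.11 RPKM in A10-FMT against 16.64, 17.86 and 15.73 RPKM in Con-FMT (log2 fold change -0.672, SE 0.266, adjusted p = 0.204), or -0.239 without that library. Pou2f2 stood at 29.25, 32.11 and 11.55 RPKM in A10-FMT and at 41.57, 36.02 and 34.9 RPKM in Con-FMT (log2 fold change -0.723, SE 0.292, adjusted p = 0.204), or -0.279 without it. Relative to the 13 B restricted genes, Pou2af1 stood at -0.051 (SE of 0.245), Bcl6 at 0.072 (SE of 0.238) and Pou2f2 at 0.020 (SE of 0.201), all within their SE of 0. Pou2af1 is itself 1 of the 13 and stayed in the reference.

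The defining genes of the receptor complex had log2 fold changes of A10-FMT against Con-FMT between -0.895 for Cd79a (SE of 0.389, adjusted p = 0.206) and -0.629 for Ms4a1 (SE of 0.334, adjusted p = 0.238), and Pax5 was at -0.892 (SE of 0.387, adjusted p = 0.206). With A10-FMT replicate 3 left out, the values were -0.302 for Cd79a, -0.128 for Ms4a1 and -0.270 for Pax5. Cd24a was higher in each A10-FMT library, 2096.18, 1449.15 and 3327.1 RPKM against 1339.51, 1310.78 and 1270.15 RPKM in Con-FMT (log2 fold change 0.726, SE 0.353, adjusted p = 0.217), or 0.416 without that library. In the same comparison 12 of 12 erythroid genes had a higher mean in A10-FMT, with a median of 0.791, 19 of 19 T cell genes a lower one, with a median of -0.963, and 8 of 10 liver genes a higher one, with a median of 2.162. Of all genes tested 29% were higher and 71% lower. Limma called 0 genes of these 3 lists, with 3 erythroid, 19 T cell and 8 liver genes at an unadjusted p under 0.05. Of all genes, 3.49% were higher and 20.1% lower at that p. Without A10-FMT replicate 3, the medians were 0.440, -0.457 and 1.646.

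**Figure D5:**
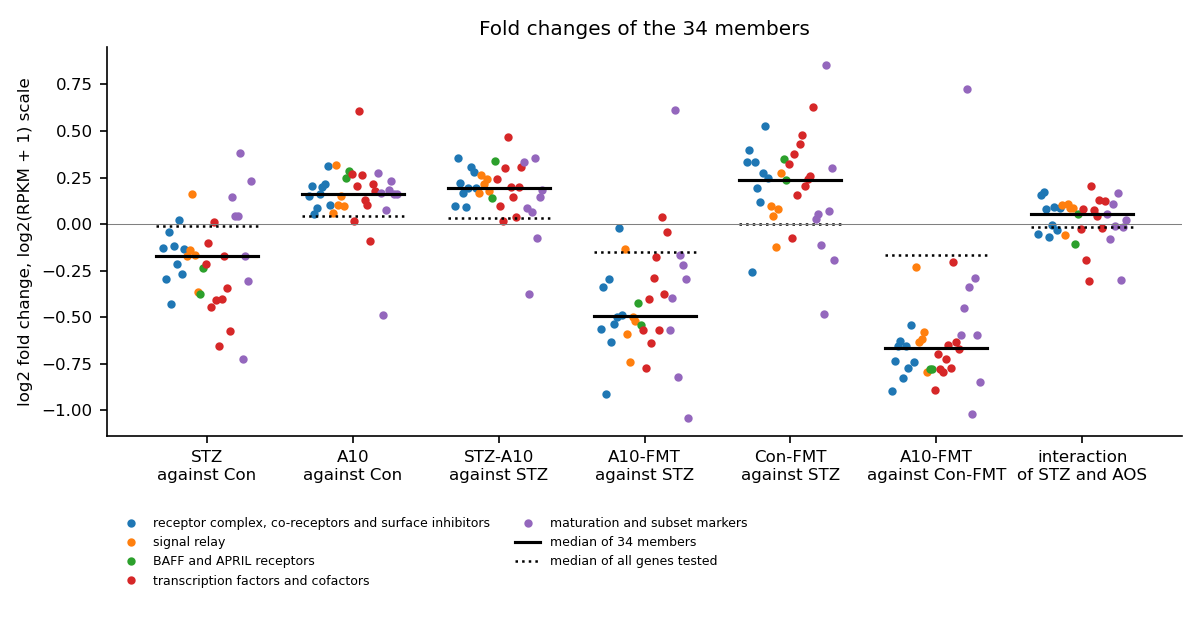
Log2 fold change of each of the 34 genes on the log2(RPKM + 1) scale in 6 comparisons and the interaction of STZ and AOS, with 1 point a gene, colours for roles, a solid line for the median of the 34 and a dotted line for the median of all genes tested. The medians of the 34 are lowest in A10-FMT against Con-FMT (-0.664) and in A10-FMT against STZ (-0.493), and Cd24a is the gene above 0.6 in both.

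A further 30 genes of the receptor pathway, among them Syk, Lyn, Malt1 and Nfkb1, were read beside the 34, and limma called 0 of 30 in each of the 7 tests. In STZ against Con 25 of 30 had a lower mean (median -0.173, from -0.41 for Prkcb to 0.19 for Nfkbia), beside 52.4% of all genes. In A10 against Con 29 of 30 had a higher mean (median 0.150), beside 62.5% of all genes. In STZ-A10 against STZ this was so for 28 of 30 (median 0.162, beside 58.7% of all genes). In Con-FMT against STZ it was so for 24 of 30 (median 0.162, beside 50.4%). All 30 had a lower mean in A10-FMT than in STZ (median -0.425) and than in Con-FMT (median -0.580), beside 72.3% and 71% of all genes. At an unadjusted p under 0.05, 5 of 30 were lower than in STZ (beside 15.2% of all genes) and 20 of 30 lower than in Con-FMT (beside 20.1%). Without A10-FMT replicate 3, 18 of 30 were lower than in STZ (median -0.037, 0 at that p) and 29 of 30 lower than in Con-FMT (median -0.195, 1 at that p). With STZ replicate 1 left out, the medians were -0.309 in STZ against Con, 0.326 in STZ-A10 against STZ and 0.306 in Con-FMT against STZ.

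Genes of B cell subsets outside the 34 were read in the same way. All 6 germinal centre genes had a lower mean in STZ than in Con (median -0.768, beside 52.4% of all genes lower), with 4 at an unadjusted p under 0.05 (beside 6.44% of all genes lower). All 6 had a higher mean in Con-FMT than in STZ (median 1.161, beside 50.4% higher), with 5 at that p (beside 2.66% higher). In A10-FMT, 5 of 6 had a higher mean than in STZ (median 0.445, beside 27.7% of all genes higher), with 0 at that p. Against Con-FMT, 6 of 6 had a lower mean in A10-FMT (median -0.774, beside 71% lower), with 5 at that p (beside 20.1% lower). With A10-FMT replicate 3 left out, these medians were 0.821 and -0.418, with 3 and 0 at that p. Without STZ replicate 1 the medians were -0.642 in STZ against Con (1 at that p) and 0.989 in Con-FMT against STZ (5 at that p). Limma called 0 of 6 in each comparison. Gcsam, a germinal centre adaptor, stood at 10.78, 12.45 and 6.3 RPKM in Con and at 2.78, 3.5 and 4.68 RPKM in STZ, equal to a log2 fold change of -1.194 with an SE of 0.307 (adjusted p = 0.097). Bcl6, 1 of the 34 and a germinal centre regulator, lay lower in each STZ library than in each Con and Con-FMT library. Both comparisons hold the same STZ libraries.

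Of 5 follicular B genes, 4 had a lower mean in STZ than in Con (median -0.419, beside 52.4% of all genes lower), with 1 at an unadjusted p under 0.05. Limma called 0 of 5. The values ran up to 0.04 for Cxcr5, and Fcer2a (Cd23), a surface marker of follicular B cells, was at the low end. It stood at 79.13, 91.89 and 142.44 RPKM in Con and at 71.69, 27.34 and 42.9 RPKM in STZ, equal to a log2 fold change of -1.187 with an SE of 0.418 (adjusted p = 0.258), and at -0.988 relative to the 13 B restricted genes (SE of 0.249, adjusted p = 0.449). The 8 marginal zone and B1 genes had a median of -0.115 in the same comparison, from -0.77 for Cd9 to 0.12 for Bhlhe41, and limma called 0 of 8. Ligands and niche genes of B cells, 10 in number, had a median of -0.092, from -0.43 for Cd40lg to 0.67 for Dll1, a Notch ligand, and limma called 0 of 10. With STZ replicate 1 left out, the median was -0.241 for the marginal zone and B1 genes and -0.260 for the ligands and niche genes.

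Of the plasma cell genes, all 8 had a higher mean in A10 than in Con (median 0.792, beside 62.5% of all genes higher), with 7 at an unadjusted p under 0.05 (beside 3.56% of all genes higher). All 8 also had a higher mean in STZ-A10 than in STZ (median 0.474, beside 58.7% higher), with 4 at that p (beside 1.28% higher), and without STZ replicate 1 the median was 0.670, with 7 at that p. Limma called 0 of 8 in both. In A10 against Con, neutrophil and testis germ cell genes had lower means, with medians of -2.010 (11 of 11 at that p) and -3.186 (4 of 4). Derl3, which helps clear misfolded proteins from the secretory pathway, stood at 7.16, 18.16 and 7.09 RPKM in Con and at 36.15, 22.11 and 29.67 RPKM in A10, equal to a log2 fold change of 1.460 with an SE of 0.388 (adjusted p = 0.377). Jchain, the joining chain of secreted antibody and the 1 gene of the immunoglobulin list analysed here, stood at 356, 758.71 and 351.59 RPKM in Con and at 965.73, 838.03 and 903.07 RPKM in A10, equal to a log2 fold change of 0.980 with an SE of 0.326 (adjusted p = 0.669). Pou2af1, which plasma cells also use, was the gene of the 34 with the lowest p in the same comparison.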

How the data were processed

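Spleen RNA was enriched with oligo(dT) and sequenced on an Illumina HiSeq. The authors mapped reads to reference genes and deposited RPKM values per gene. The study's methods name SOAPaligner, and the submitters' processing notes name Bowtie 0.12.2 and the build mm10. No read counts were used here, so depth is unknown and counting intervals are not given. In olfactory receptor genes, which spleen hardly transcribes, the most frequent value above 0 was 0.08 to 0.09 RPKM, which would put 11.1 to 12.5 reads on each kilobase of a gene with an RPKM of 1, were that value a single read. Summed RPKM ran from 673221 to 884539. From the table, 6 lines with 3 repeated names were dropped.

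Groups came from the sample labels. limma 3.58.1 (trend, R 4.3.3) was fitted to log2(RPKM + 1) of the 12905 genes with an RPKM of at least 1 in at least 3 libraries, with 18 libraries and 1 coefficient a group. Fold changes are on this scale, which understates those of low genes. P-values are two-sided and adjusted by the Benjamini-Hochberg method over all genes tested, with a threshold of 0.05. The study's DEGseq test needs counts. The fit was tested on simulated data. Correlations used 100000 permutations (numpy, scipy). Promoters came from RefSeq (GRCm38.p6).

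The 34 genes and the other lists were chosen with earlier results of these data known. Values are given in full for 6 defining genes (Ms4a1, Cd79a, Cd79b, Cd22, Pax5, Cr2) and, in each comparison, for genes past the threshold and the 3 with the lowest p. Genes of other lists are named where past the threshold, at the ends of their list's range or as defining markers. Genes named beyond this were chosen after their values were seen: Bach2 in Con-FMT against STZ, Cd24a in A10-FMT against Con-FMT, Jchain, Ly6d, Dtx1 and Vpreb3 as relative levels. The alternatives were a pseudocount of 0.1, 2 other filters, 3 other normalizations, limma without trend, array weights, fits of the compared groups only, a block for the replicate number, the threshold of the study (adjusted p of at most 0.001, absolute log2 fold change of at least 1) and leaving out each library. After seeing the data, centring on the 13 B restricted genes and leaving out A10-FMT replicate 3 and STZ replicate 1 together were added, and the gene lists were refitted without each of these libraries. Some genes of the other lists are not reported here.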

Additional observations from a re-analysis of the deposited data

How the results depend on the processing

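The 0 members called held in each of the 7 tests under all alternatives but array weights and 1 left-out library. With array weights, limma called 14 of the 34 in STZ against Con, 1 in A10-FMT against STZ, 15 in Con-FMT against STZ and 17 in A10-FMT against Con-FMT. The same weights raised the calls over all genes from 21 to 3132, 1 to 1605, 1 to 2125 and 0 to 5399 in these comparisons, and from 1 to 801 in A10 against Con, 1 to 9 in STZ-A10 against STZ and 0 to 3 in the interaction, and the cause was not tested. Leaving out 1 library at a time gave 0 to 18 members in A10-FMT against Con-FMT, with 18 without A10-FMT replicate 2, and 0 to 234, 1 to 21, 1 to 87, 1 to 3 and 0 to 2625 calls over all genes in STZ against Con, A10 against Con, A10-FMT against STZ, Con-FMT against STZ and A10-FMT against Con-FMT. Other settings gave as few as 0 calls over all genes in STZ against Con.

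The median of the 34 genes in A10-FMT against STZ ran from -0.818 to 0.051 when a library was left out, and was 0.153 with array weights and 0.297 without both A10-FMT replicate 3 and STZ replicate 1. In A10-FMT against Con-FMT it ran from -0.964 to -0.186, and was -0.186 without that pair of libraries.

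Of 960 values of 32 named results, 912 kept their direction and side of the threshold, 15 newly passed it and 33 turned direction. No named result passed the threshold to begin with, so none could lose it. In STZ against Con, Cd22 turned to -0.084 with array weights and -0.298 without both libraries, and Cd79a and Cr2 to 0.071 and 0.155 when centred on the 13 B restricted genes. With a library left out Cd22 ran from -0.298 to 0.243, Cd79a from -0.428 to 0.049 and Cr2 from -0.260 to 0.186. In A10-FMT against STZ, array weights gave 0.280 for Ms4a1, 0.199 for Cd79a, 0.362 for Cd79b, 0.171 for Cd22 and 0.068 for Pax5. Centring gave 0.220 for Ms4a1, 0.180 for Cd79b and 0.016 for Cd22. Without both libraries the values were 0.402, 0.329, 0.529, 0.392 and 0.329 in the order of the array weights. With a library left out Ms4a1 ran from -0.599 to 0.204, Cd79a from -0.874 to 0.030, Cd79b from -0.642 to 0.188, Cd22 from -0.818 to 0.072 and Pax5 from -1.010 to 0.052. In A10-FMT against Con-FMT, centring gave 0.072 for Bcl6 and 0.020 for Pou2f2.

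Replicate numbers are shared between groups, but 14 of 45 same-numbered pairs had deviations correlated over 0.1 (range -0.385 to 0.571), so the numbers were not taken to pair animals. With the replicate number as a block, limma called 0 of the 34 in each test, and calls over all genes in STZ against Con were 3. The pooled SD of the library medians within groups was 0.424 (log2), with 3 libraries a group, and depth could not be judged without counts.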

Other observations

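Ly6d parted from the other B cell genes within Con-FMT, the group with the lowest median variation. It stood at 175.57, 158.97 and 464.32 RPKM in the 3 Con-FMT libraries, a coefficient of variation of 64.5%, beside the median of 5.97% over the 34 genes. In STZ-A10 replicate 1 it was at 463.89 RPKM, close to its highest value, and there Dtx1, at 114.58 RPKM, was at its highest. Ly6d was named here after its values were seen.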
